A study of Mus musculus with 8 samples.

Results

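DNA methylation was measured in sorted mouse muscle stem cells by reduced representation bisulfite sequencing, an assay that samples cytosine methylation mainly where CpGs are frequent. The study set 4 samples of fixed cells, treated with 0.5% paraformaldehyde, against 4 samples of live cells, with 1 animal per sample per the labels. Both groups carried the Tg:Pax7-nGFP/+ transgene, a nuclear green fluorescent reporter driven by the gene of the muscle stem cell factor Pax7, by which the cells were sorted. The labels state neither age nor sex. The series title speaks of fixation in situ and its design text of fixing isolated cells.

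The subject here is the clusters of neighbouring CpG sites that lie in long noncoding RNA (lncRNA) genes and in no protein-coding gene. The authors deposited their clusters as a list of 21 called significant and a list of 27857 not called. A cluster was taken when it was under 400 bp long, when its midpoint lay inside a RefSeq lncRNA gene and inside no protein-coding gene, and when that midpoint was more than 1000 bp from every protein-coding gene end. Of 27878 clusters, 1766 (6.33%) met this rule. The length limit left 27074 clusters, of which 3022 had a midpoint in an lncRNA gene; 2010 of those were in no coding gene, and 1766 of these were also away from coding gene ends. Positions are in mm10. The cell type label could not be checked against marker expression, because cluster positions carry no expression level.

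Long noncoding RNAs are transcripts without a long open reading frame. Many are transcribed from sequence beside a transcription factor gene, often in the opposite direction from a shared CpG-rich start region, and others serve as host transcripts from which small RNAs are cut. In imprinted domains, lncRNA genes are expressed from a single parental allele, and methylation of the control region distinguishes the alleles. Some lncRNAs, such as Malat1 and Neat1, are abundant nuclear RNAs in most tissues.

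Of the 1766 clusters, 3 were called by the authors, or 0.170% (exact Clopper-Pearson 95% interval 0.0350 to 0.496%), against 0.0753% of all clusters. At the share of all clusters, 1.33 calls would fall on 1766 clusters, and the interval includes that share. Outside the lncRNA-only clusters 18 of 26112 were called (0.0689%, interval 0.0409 to 0.109%). The intervals cover counting error only, neighbouring clusters are not independent, and no test of the difference was run. The 3 called clusters lay in Gm40687 on chromosome 10 and in Rian and 1700030C10Rik on chromosome 12. No called cluster lay in an lncRNA gene and was lost by the rule.

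The start regions of the 3 host genes show how differently the called loci are built. They are shown because a called region began 238 bp after the second annotated start of Gm40687, 264 bp after the start of 1700030C10Rik and 10618 bp after the start of Rian. Each window runs from 250 bases before to 50 bases after the start, 5′ to 3′ on the strand of the gene, from RefSeq GRCm38.p6, with CpG dinucleotides in capitals.
Gm40687, first start (chr10:70289518-70289817, plus strand): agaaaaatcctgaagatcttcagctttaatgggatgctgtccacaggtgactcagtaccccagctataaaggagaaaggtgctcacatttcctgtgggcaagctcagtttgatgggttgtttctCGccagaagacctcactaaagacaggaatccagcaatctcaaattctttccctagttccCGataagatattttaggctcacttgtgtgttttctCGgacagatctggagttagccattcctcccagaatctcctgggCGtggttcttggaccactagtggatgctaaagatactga
Gm40687, second start (chr10:70291064-70291363, plus strand): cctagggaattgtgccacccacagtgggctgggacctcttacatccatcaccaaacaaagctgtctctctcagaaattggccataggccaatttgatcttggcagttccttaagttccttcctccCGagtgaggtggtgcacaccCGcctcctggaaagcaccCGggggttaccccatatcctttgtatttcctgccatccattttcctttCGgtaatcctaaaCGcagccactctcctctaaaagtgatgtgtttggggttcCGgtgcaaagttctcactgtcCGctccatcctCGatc
Rian (chr12:109603695-109603994, plus strand): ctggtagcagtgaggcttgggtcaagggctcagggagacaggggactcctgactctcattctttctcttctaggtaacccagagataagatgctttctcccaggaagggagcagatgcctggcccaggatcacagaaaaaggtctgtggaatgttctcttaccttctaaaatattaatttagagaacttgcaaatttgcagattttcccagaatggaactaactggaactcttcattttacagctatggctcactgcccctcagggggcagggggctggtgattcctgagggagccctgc
1700030C10Rik (chr12:20815730-20816029, minus strand): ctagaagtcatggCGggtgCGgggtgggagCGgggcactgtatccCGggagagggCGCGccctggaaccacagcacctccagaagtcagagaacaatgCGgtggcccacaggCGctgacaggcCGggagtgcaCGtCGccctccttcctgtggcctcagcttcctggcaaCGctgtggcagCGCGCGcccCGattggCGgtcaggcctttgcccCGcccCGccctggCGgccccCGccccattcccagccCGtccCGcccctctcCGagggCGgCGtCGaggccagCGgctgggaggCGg

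The window of 1700030C10Rik held 29 CpGs, against a median of 4 over the 11588 lncRNA windows of the same length. The second start of Gm40687 had 8 and its first start had 4. The window of Rian had 0. None of these windows overlapped the called region of its gene, so the letters describe the starts and not the bases that were called.

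In the authors' deposited table the median methylation difference was negative for all 3 called clusters and for 12 of the other 18 regions. Whether it is fixed minus live or the reverse is not stated, so no direction is assigned to fixation. The sizes ran from 16.8 to 22.1 percentage points in the authors' deposited table, close to its median over all regions of 18.4 points. No value per sample accompanies them, and their error is unknown.

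Rian is a maternally expressed lncRNA gene of the imprinted Dlk1 to Dio3 domain and the host of small RNAs. Its called region (chromosome 12, 109614563 to 109614706, 144 bp) had a difference of -16.8 points and a p of 1.92e-07 in the authors' deposited table. The authors' deposited table assigns it to the microRNA gene Mir1188, 2741 bp from that start. It was the only cluster in Rian, a gene of 57772 bp, and no other cluster lay within 10000 bp of it. The nearest coding gene end, 10216.5 bp away, belonged to Rtl1, a paternally expressed gene derived from a retrotransposon. The next cluster lay 28660.5 bp away, inside Rtl1, and was not called.

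Inside Rian, 3 microRNA genes and 11 small nucleolar RNA genes are annotated, and the called region falls between the microRNA genes. Mir1188 ends 2622 bp and Mir341 2968 bp before the region, and Mir370 starts 3552 bp after it. Their mature sequences from RefSeq are shown 5′ to 3′ with the seed, bases 2 to 8, in capitals, because the authors name the region after one of them.
miR-1188-5p: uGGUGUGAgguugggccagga
miR-1188-3p: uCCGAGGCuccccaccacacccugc
miR-341-5p: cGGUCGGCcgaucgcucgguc
miR-341-3p: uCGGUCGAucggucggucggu
miR-370-5p: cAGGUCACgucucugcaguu
miR-370-3p: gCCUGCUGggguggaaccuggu

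No seed was shared between these 6 mature sequences. Across the whole domain from Dlk1, which encodes a Notch-related ligand, to Dio3, a thyroid hormone deiodinase gene, 22 clusters were listed. Of these, 6 met the rule and 1 was called. Besides Rian they lay in Gm34554, Gm34667, Gm40574, in the overlapping genes Gm40575 and Gm34895, and in Dio3os, the antisense partner of Dio3. Meg3 and Mirg, the other long noncoding RNA genes of the domain that were looked up, held none.

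1700030C10Rik had the called region (chromosome 12, 20815327 to 20815515, 189 bp) with a difference of -18.3 points and a p of 5.06e-06 in the authors' deposited table. The region lies at the 5′ end of this minus-strand gene of 11391 bp. A further cluster of the gene, 46 bp long with its midpoint 404.5 bp away, was not called. Another cluster within 1000 bp lay beyond the gene end and was not called either. The nearest coding gene end was 144730 bp away (LOC108167368), farther than for 85.8% of the lncRNA-only clusters, and the next coding gene on the other side, 295947 bp away, was Asap2, which encodes an Arf GTPase-activating protein.

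Gm40687 had the called region (chromosome 10, 70291552 to 70291772, 221 bp) with the largest difference of the 3, -22.1 points, and a p of 4.52e-06 in the authors' deposited table. The authors' deposited table calls it distal intergenic and assigns it to Slc16a9, a monocarboxylate transporter gene, with a transcript start 24573 bp away. In RefSeq annotation the region lies in the plus-strand gene Gm40687 (70289768 to 70308449), and the end of Slc16a9 was 5711 bp away. The gene's other cluster, 110 bp long with its midpoint 665.5 bp away, was not called. On the far side the next coding gene was Fam13c, 148310 bp away. In the map of the called loci, 0 other called clusters lay within 50000 bp of any of them. Few clusters were there to be called: 3 others lay that near the region of Gm40687, 1 near Rian and 3 near 1700030C10Rik. With 0.0753% called over all clusters, nothing is read from this count.

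**Figure D1:**
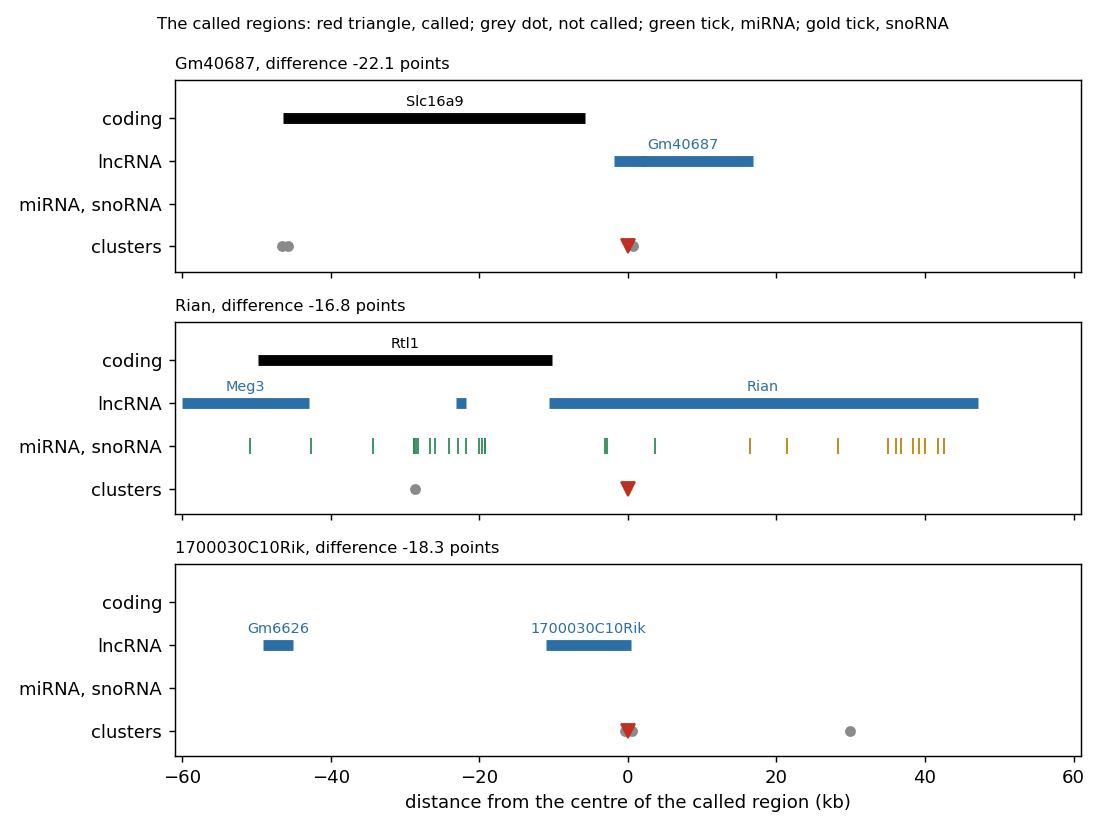
Genes and clusters within 60000 bp of each called region, plotted by distance in kb from its centre; black bars are coding genes, blue bars lncRNA genes, green and gold ticks microRNA and snoRNA genes, grey dots clusters that were not called and red triangles called clusters. Each of the 3 panels has 1 called cluster, and the neighbours of Gm40687 and 1700030C10Rik within 1000 bp are grey.

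All 1766 clusters were spread over 1330 lncRNA genes, 10.4% of the 12731 in the annotation. Most hosts, 1008 of them (75.8%), held 1 cluster. A further 322 held 2 or more, and 41 held 4 or more. For 90 clusters the midpoint lay in more than 1 lncRNA gene at once. Of the hosts, 1007 carry a Gm number, 215 a Rik name and 15 a LOC number, which leaves 93 with some other symbol. Most of these are names such as Sox2ot, but some are clone or sequence identifiers such as AI606473, BC051537 and D6Ertd474e. Symbols of this remaining class made up 6.99% of hosts and 3.94% of all lncRNA genes. A curated RefSeq transcript existed for 32.2% of hosts and for 26.1% of all lncRNA genes.

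Long genes were hosts more often than short ones. The median host was 17224 bp long, against 7858 bp for lncRNA genes without such a cluster. Of the 3183 lncRNA genes of 19048 bp or more, 19.8% held a cluster, and of the 3183 of 3723 bp or less, 5.12% did.

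The host with the most clusters was Sox2ot, which surrounds Sox2, the pluripotency and neural transcription factor gene, with 13. 8430419K02Rik beside the homeobox gene Meis1 and Gm33655 near the forkhead gene Foxd2 had 8 each. Hosts with 7 were Sox1ot beside Sox1, Gm10000 beside the homeobox gene Gsc, Gm33993 beside the homeobox gene Msx1, Gm33562 beside Onecut1, Gm2164 near the POU factor gene Pou3f1, D030068K23Rik near Zfhx3 and Gm11515, between the homeobox gene Dlx4 and the tachykinin gene Tac4. Hosts with 6 were Gm46873 beside Pax7 and Gm31724, whose nearest coding gene is the ribosomal protein gene Rpl38. Of these 12 hosts, 10 had a transcription factor gene as their most frequent nearest coding gene; the exceptions were Gm11515 and Gm31724. None of the 12 had a called cluster, against 0.0753% called over all clusters.

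Gm46873 lies head to head with Pax7, the regulator that defines muscle stem cells. It is a plus-strand gene of 19743 bp on chromosome 4 that begins 352 bp inside the outer end of Pax7 (139737059 to 139833530). The gene has an annotated start 62 bp inside the same end, from which the window is taken. Its start window is shown because the gene and Pax7 are transcribed away from each other from this stretch; CpGs are in capitals.
Gm46873 (chr4:139833218-139833517, plus strand): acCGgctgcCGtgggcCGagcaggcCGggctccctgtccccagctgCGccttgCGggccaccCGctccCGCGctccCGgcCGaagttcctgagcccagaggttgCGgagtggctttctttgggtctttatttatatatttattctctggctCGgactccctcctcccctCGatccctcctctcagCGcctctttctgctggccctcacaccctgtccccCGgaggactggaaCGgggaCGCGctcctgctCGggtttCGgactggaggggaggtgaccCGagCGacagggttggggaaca

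This window held 23 CpGs and 4 CCGG sites. The 6 clusters of Gm46873 lay 2767 to 19188.5 bp from the end of Pax7, with 4 of them in the last part of the gene, from 18119 bp after its lower-coordinate end. They were 29 to 115 bp long, and 0 were called, against 0.0753% called over all clusters.

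**Figure D2:**
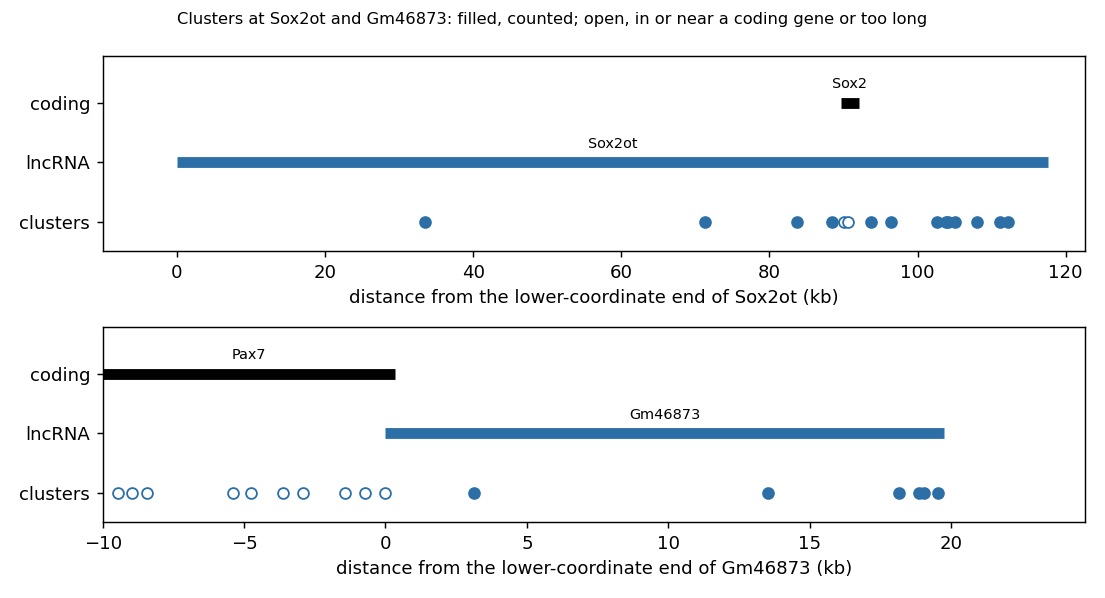
Clusters at Sox2ot and Gm46873 by distance in kb from the lower-coordinate end of each lncRNA gene; filled circles met the rule, open circles lay in or near a coding gene or were too long. The 13 filled circles of Sox2ot lie on both sides of Sox2, and the 6 of Gm46873 lie beyond the end of Pax7, with 4 of them near the far end of the lncRNA gene.

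Developmental regulators were frequent among the neighbouring coding genes with most clusters. The 1766 clusters had 1108 different nearest coding genes, of which 740 were nearest to a single cluster. Sox2 was nearest to 17, Rpl38 to 10, Meis1 and Pou3f1 to 9 each, and Msx1 to 8. In a list of 139 developmental transcription factor genes other than Hox genes, 68 (48.9%) were the nearest coding gene of at least 1 cluster, against 5.06% of all 21900 coding genes. The 5.06% counts every coding gene, whether or not lncRNA-only sequence lies beside it. This list and those below were chosen with earlier results of these data known, so their shares are descriptions and not tests. These 68 genes accounted for 211 of the clusters, 11.9%, while 4.92% of the clusters outside coding and lncRNA genes and 4.52% of all clusters had a gene of this list as their nearest. 0 of the 211 were called, so the share called could be as high as 1.42%, against 0.0753% called over all clusters. Among the list genes with most clusters were Gsc, Lmx1b, Pou3f3, Sox1 and Tbx3, with 7 each, Foxd2 with 6 and Dlx4 with 5.

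Hox genes, the regulators of position along the body axis, were nearest to 24 clusters, 1.36% of the lncRNA-only clusters against 0.585% of all clusters and 0.296% of those outside coding and lncRNA genes. Of the 39 Hox genes, 12 were a nearest gene. Hoxb13 had 6 clusters in Gm11538 and Gm30134, and Hoxb9 had 5 in Gm53. Among the single clusters were those in Hotair, beside Hoxc12, and in Hottip, beside Hoxa13, both lncRNA genes that lie within the Hox loci. Haglr at Hoxd3 and Hoxa11os at Hoxa11 held 2 each. None of the 24 was called, which allows up to 12.5%, a limit far above the 0.0753% called over all clusters.

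Of the lncRNA genes listed as partners of developmental regulators, 30 were in the annotation as lncRNA and 19 of them (63.3%) held 60 clusters, against 10.4% of all lncRNA genes that held at least 1. The listed genes were not matched to the others for length, and long lncRNA genes were hosts more often. Of the 60, 0 were called, which allows up to 5%, a limit far above the 0.0753% called over all clusters. After Sox2ot and Sox1ot came Otx2os1 and Pax6os1 with 5 each, Dlx6os1, Fendrr and Tbx3os1 with 4 each and Dlx4os and Gata6os with 3 each. Fendrr, which is transcribed away from the forkhead gene Foxf1, had its 4 clusters 1837 to 10762 bp from the end of Foxf1. Those of Pax6os1 lay 1336.5 to 8987 bp from the end of the eye and brain regulator gene Pax6. Those of Otx2os1 reached from 1741 to 84551.5 bp from the head regulator gene Otx2.

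Among 20 genes that define or maintain quiescent muscle stem cells, 6 (30%, against 5.06% of all coding genes) were the nearest coding gene of 13 clusters. These 13 were 0.736% of the lncRNA-only clusters. Genes of this list were nearest to 0.341% of all clusters and 0.444% of those outside coding and lncRNA genes. Of the 13, 0 were called, which allows up to 23.1%, a limit far above the 0.0753% called over all clusters. Besides Pax7 the 6 genes were Pax3, its paralogue in muscle progenitors, with 2 clusters in Gm33152, and the cell cycle inhibitor gene Cdkn1c with 2 in Gm33663. The Notch target gene Hes1, the receptor gene Notch3 and the signalling inhibitor gene Spry1 had 1 each. Genes of myogenic commitment and differentiation were nearest to 5 clusters, at 3 of 20 genes (15%, against 5.06% of all coding genes). These 5 were 0.283% of the lncRNA-only clusters. The myogenic list was nearest to 0.1399% of all clusters and 0.1345% of those outside coding and lncRNA genes. Mef2c, which encodes a factor of muscle differentiation, had 3 in C130071C03Rik, at 64059 to 71136.5 bp. Mef2d and the embryonic myosin gene Myh3 had 1 each. None of the 5 was called, which allows up to 60%, against 0.0753% called over all clusters.

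Of 18 lncRNA genes known from work on muscle and found in the annotation, 6 (33.3%, against 10.4% of all lncRNA genes) held 10 clusters. The genes of this list and of the imprinted lncRNA list below were not matched to the others for length. Fendrr and H19 are also counted in other lists. Of the 10, 0 were called, which allows up to 30%, against 0.0753% called over all clusters. H19, an imprinted lncRNA gene that is abundant in embryonic muscle, had 2, Fendrr had 4, and Malat1, Neat1, Dancr and Pvt1, which lies beside Myc, had 1 each. The cluster in Malat1 lay 526 bp from the annotated start of that gene. Of 11 imprinted lncRNA genes found, 3 (27.3%, against 10.4% of all lncRNA genes) held 4 clusters: H19, Nctc1 and Rian. The 1 called was that of Rian; with 0.0753% called over all clusters and this single region counted again in the lists that follow, nothing is read from these counts. Imprinted coding genes were nearest to 13 clusters at 7 of 43 genes, among them 4 at Dio3 and 2 each at Rtl1, Cdkn1c and Th, with the Rian region again the 1 called. Small RNA host genes held 21 clusters at 15 of 35 genes. Mir9-3hg, host of a microRNA of neural development, had 5 and Snhg10 had 2, and the Rian region was the 1 called.

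Within their genes, the clusters were densest near the annotated start. A start was annotated for the hosts of 1372 clusters, which lay a median of 4744.5 bp from the nearest start. The density was 53.3 clusters per Mb (exact Poisson 95% interval 43.5 to 64.6) up to 250 bp from a start and 37.3 per Mb (32.4 to 42.8) from there to 1000 bp. It was 15.1 per Mb from 1000 to 5000 bp and 3.42 per Mb (2.77 to 4.17) beyond 50000 bp. These densities count only lncRNA sequence and clusters that satisfy the distance rule. A start near a coding gene therefore loses sequence and clusters from the nearest bins, while the rest of its gene still counts in the farther ones. Gm46873, which starts inside Pax7, is such a gene. The bins thus do not cover the same set of genes, and the fall in density was not tested within genes. Within 1000 bp of either end of the host gene lay 503 clusters, 28.5% (exact Clopper-Pearson 95% interval 26.4 to 30.7%).

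**Figure D3:**
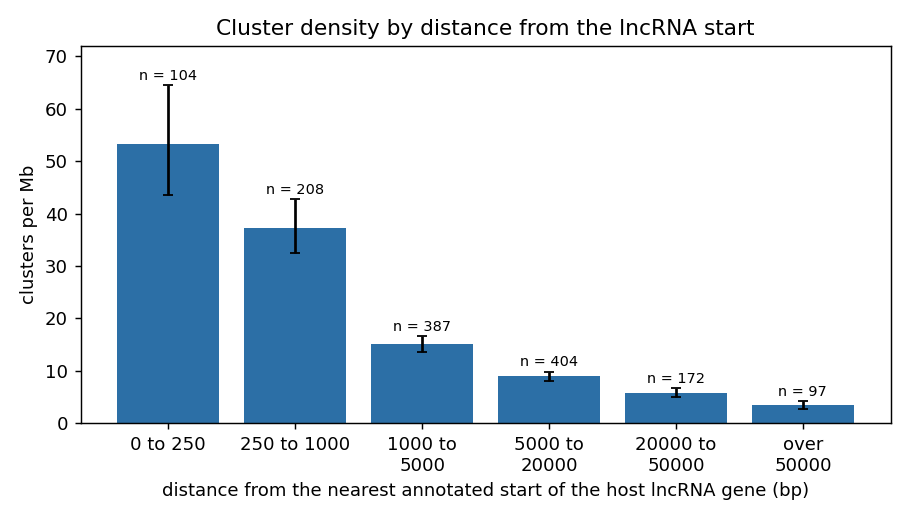
Clusters per Mb of lncRNA-only sequence by distance in bp from the nearest annotated start of the host gene; bars are densities, whiskers exact Poisson 95% intervals and n the number of clusters. Density falls at each step, from 53.3 per Mb in the nearest bin to 3.42 per Mb in the farthest.

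Starts rich in CpG were covered more often. Of 7297 lncRNA starts that satisfy the distance rule, 364 (4.99%) had a cluster within 1000 bp. The share was 30.4% (34 of 112 starts, interval 22.0 to 39.8%) where the start window held 21 or more CpGs, 9.46% with 6 to 10 and 1.22% (35 of 2870, interval 0.851 to 1.69%) with 0 to 2. Reduced representation libraries are commonly cut at CCGG; the enzyme is not named in the labels. The motif CCGG, which reads the same on both strands, was in the window of 2017 of these starts, and 10.8% of them had a cluster, against 2.78% of the 5280 starts without it. All 61 lncRNA start windows that a cluster of the same gene overlapped held CCGG, against 35.5% of all lncRNA windows and 52.8% of all 32851 promoter windows of 300 bases. In a library cut at CCGG the measured bases lie beside that motif, so these CCGG shares would be fixed in part by the assay. They are descriptions and were not tested.

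For 16 clusters the whole cluster lay within a start window of its own host, which gives the measured bases themselves. The 5 longest are shown, because they show what such a cluster is made of; bases are 5′ to 3′ on the strand of the gene with CpGs in capitals.
Gm46298, near Axin2 (chr11:108910110-108910233, minus strand): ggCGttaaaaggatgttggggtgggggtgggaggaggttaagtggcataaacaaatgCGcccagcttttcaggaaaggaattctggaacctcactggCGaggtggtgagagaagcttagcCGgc
Gm31816, near Cadm1 (chr9:47368291-47368413, minus strand): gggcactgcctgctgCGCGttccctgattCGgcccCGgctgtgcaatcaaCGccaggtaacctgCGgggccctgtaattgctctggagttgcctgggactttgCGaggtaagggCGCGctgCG
Gm32316, near Cstad (chr2:30652625-30652731, minus strand): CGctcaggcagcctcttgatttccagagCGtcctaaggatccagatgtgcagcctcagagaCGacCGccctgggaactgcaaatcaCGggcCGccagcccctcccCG
Gm39329, near 4931429L15Rik (chr9:46328919-46329013, plus strand): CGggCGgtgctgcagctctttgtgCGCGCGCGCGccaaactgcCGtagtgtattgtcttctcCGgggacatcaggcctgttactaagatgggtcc
Gm34728, near Igfbp7 (chr5:77434145-77434217, plus strand): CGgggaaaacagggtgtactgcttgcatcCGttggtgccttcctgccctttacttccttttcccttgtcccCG

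These 16 clusters held 0 to 10 CpGs, with a median of 6.17 CpGs per 100 bases, against a median of 2.33 over all promoter windows. The counts of 0 belong to clusters of 1 base, at Gm29998, Gm36894 and Gm32287. On 1 base no CpG dinucleotide can be counted, so these are not clusters free of CpG, yet they enter the median as 0. The comparison is fixed in part by construction, since a cluster is made of CpG sites and 9 of the 16 sequences begin with one. The cluster at Gm31816 had 10 CpGs in 123 bases and that at Gm46298 had 4 in 124, so clusters of like length differed 2.5-fold in CpG content. None of the 16 was called, against 0.0753% called over all clusters.

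Most clusters lay well away from coding genes, as the rule requires at the near end. The distance to the nearest coding gene end had a median of 27916.5 bp (quartiles 8463.5 and 76133.4 bp); 310 clusters (17.6%) lay within 5000 bp and 350 (19.8%) beyond 100000 bp. For clusters outside coding and lncRNA genes the median was 30948.8 bp. Beyond 500000 bp lay 28 clusters. The farthest, in Gm33860 and 4930474G06Rik, lay 2187865 and 1636595.5 bp from Pik3c3, on chromosome 18. The next were in Gm32647 and 1700019L22Rik, 1462863.5 bp from the teneurin gene Tenm4 and 1393821 bp from Tenm3, and the fifth lay in Gm32647 too, 1210893.5 bp from Gm15501. At the limit of 1000 bp, the nearest clusters inside were 1005 bp from Zfp169, in A830005F24Rik, and 1020.5 bp from Pcdh19, in Gm26851. Just outside were clusters in Gm39483 at 994 bp from Eif4a3 and in Gm41999 at 983.5 bp from Car3.

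**Figure D4:**
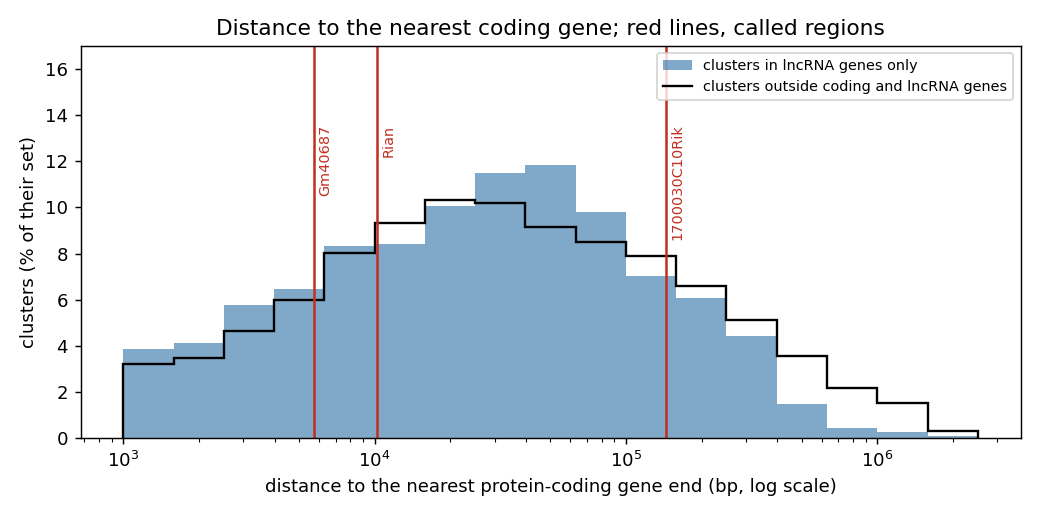
Distance in bp, on a log scale, from each cluster to the nearest protein-coding gene end, as the percent of clusters per bin; filled, the clusters in lncRNA genes only; outline, clusters outside coding and lncRNA genes; red lines, the 3 called clusters. The red lines lie at 5711 bp (Gm40687), 10216.5 bp (Rian) and 144730 bp (1700030C10Rik), within the range of the filled bars.

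The strand of both the host and the nearest coding gene was known for 1108 clusters. The nearest coding gene was on the same strand for 475 (42.9%), head to head for 408 (36.8%) and tail to tail for 225 (20.3%). Each cluster of a gene pair is counted, and the terms give strand and side at any distance, not a shared start region. No share for lncRNA genes without a cluster was computed. Of the called regions, that of Gm40687 was on the same strand as Slc16a9, and that of 1700030C10Rik was tail to tail with its neighbour.

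Cluster length had a median of 93 bp (quartiles 64 and 143 bp), and 86 clusters were a single position. Clusters within 1000 bp of a coding gene end had a median of 68 bp and those outside coding and lncRNA genes 90 bp. The longest inside the limit of 400 bp were 394 bp in Tbx3os2 and 392 bp in Tbx3os1, and the shortest left out were 400 bp in Gm41485 and 401 bp in Gm26973. The 3 called clusters were longer than the median: 92.8% of the lncRNA-only clusters were no longer than that of Gm40687, 88.2% for 1700030C10Rik and 75.4% for Rian.

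By chromosome, most clusters lay on chromosomes 11 (159), 2 (130) and 5 (128), and fewest on Y (0), X (29) and 19 (45). They made up 9.18% of all clusters on chromosome 13 and 2.56% on chromosome X. Per Mb of lncRNA-only sequence the density was 18.9 on chromosome 11 and 5.94 on chromosome X. Over the genome, lncRNA-only sequence held 10.2 clusters per Mb and sequence outside coding and lncRNA genes 5.09 per Mb. The latter counts every such base between the first and last gene of each chromosome. Neither density was adjusted for CpG content or for sequence the assay cannot read, and the contrast was not tested.

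**Figure D5:**
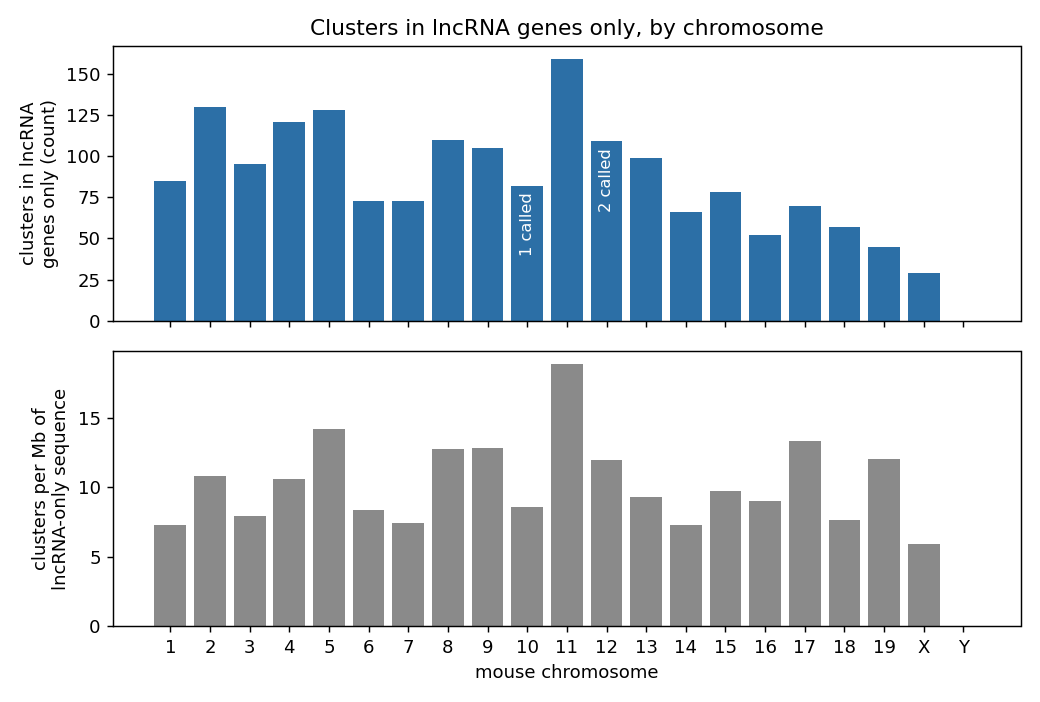
Clusters in lncRNA genes only for each mouse chromosome, as a count (top) and per Mb of lncRNA-only sequence (bottom), with called clusters written in the bars. Chromosome 11 is highest on both scales, at 159 clusters and 18.9 per Mb, and the called clusters lie on chromosomes 10 and 12.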

How the data were processed

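Per the submitters' processing notes, the tools were Trim Galore 0.4, Bismark 0.14.4 and ChIPseeker 1.12.1, with the mm10 build. Not given in the sources used here are the region caller, its coverage filter and its threshold. Both deposited lists hold cluster positions only. The p-values and signed median methylation differences are those of the authors' deposited table; whether the p-values were adjusted is not stated, and 2 columns of group levels whose names match neither group were not used. Read depth and values per sample are unknown, so no test across animals was run. All 21 table regions match the called list.

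Clusters were placed with start + 1 to end on RefSeq genes of GRCm38.p6, the assembly behind mm10. Start sites and strands came from the RefSeq promoter windows, which covered 1022 of the 1330 host genes. Shares carry exact Clopper-Pearson 95% intervals and densities exact Poisson intervals, which cover counting error only. Where 0 of a list were called, the limit given is instead 3 of the total, an approximation that is too high for small totals. The rule was tested on simulated data, a made-up chromosome with 12 clusters, of which 12 were classified as known. Intervals came from scipy 1.17.1, tables from pandas 2.3.3 and numpy 2.4.6 and figures from matplotlib 3.10.9, under Python 3.11.15. The members, lists and named genes were chosen with earlier results of these data known. The rule for naming took loci with a called cluster, the 12 fullest hosts, up to 10 list genes each, and the clusters at the rule's limits. Densities by start and CpG counts were added after the data were seen. The alternatives changed placement, distance, length, chromosomes and gene names.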

Additional observations from a re-analysis of the deposited data

How the results depend on the processing

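In the 8 alternative settings, the count of lncRNA-only clusters ranged from 1504 to 2010, except when hosts with a plain Gm number, a Rik name or a LOC number were left out. The same 3 called regions were kept in 7 of them. Without those hosts there were 167 clusters in 93 genes, 1 of them called (Rian), with 22.8% within 1000 bp of a gene end and a median distance of 11868 bp to a coding gene end; most hosts carry such a symbol, so this setting removes them by construction. The median distance was 33956.5 bp when clusters had to be more than 3000 bp from coding gene ends and 21695.5 bp with no minimum, where 32.8% lay within 1000 bp of an end of their host, since the setting adds or removes the clusters nearest to coding genes. No paired analysis was possible because clusters come without per-animal values, although the labels of both groups share replicate letters; leaving out single replicates was not possible either. Unknown read depth limits what clusters that were not called can show.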

Other observations

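Some clusters lay beside small RNA genes inside lncRNA genes. Within 1000 bp of a microRNA gene lay 13 clusters, none of them called, against 0.0753% called over all clusters. Of the 13, 2 overlapped the hairpin itself, at Mir3093 in Gm3764 and at Mir6236 in Gm39429. The others included 1 at 489 bp from Mir9-2 in C130071C03Rik near Mef2c, 1 at 624 bp from Mir9-3 in Mir9-3hg, 1 at 688 bp from Mir675 in H19, and 2 beside Hox microRNA genes, at 633 bp from Mir196b in Gm52902 and 785 bp from Mir196a-1 in Gm53. Of the X inactivation lncRNA genes, Firre and Ftx held 1 cluster each and Xist held 0. Genes annotated as pseudogene overlapped 12 of the lncRNA-only clusters, those annotated as transcribed pseudogene 3 and tRNA genes 2.

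In the list of clusters that were not called, 73 precede the point where the chromosome order restarts. Of these, 3 were lncRNA-only clusters, in Gm48893 near Arhgap18 (chromosome 10, 26746847 to 26746892), Gm15318 near Tff1 (chromosome 17, 31158360 to 31158391) and Gm13846 near the podocalyxin gene Podxl (chromosome 6, 31716550 to 31716748). They carry no values, and what sets the 73 apart was not tested.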
